A study of Homo sapiens with 4 samples.

Results

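Catecholamines are the amine messengers dopamine, noradrenaline and adrenaline, and the genes that make, store, recapture and degrade them were examined in Kelly cells, an established neuroblastoma line. The set was given as 9 gene symbols, TH, DDC, DBH, GCH1, SLC18A1, SLC18A2, SLC6A2, CYB561 and MAOA, and its members were the probe sets annotated to exactly 1 of them. All 9 genes were found, with 28 probe sets, among 18244 genes with 45278 single-gene probe sets. The cells had become resistant to the ALK kinase inhibitor TAE684, and both groups were grown with 1 µM of it. One group (shBORIS, n = 2) received a viral short hairpin against BORIS, the product of CTCFL, and the control group (shLUC, n = 2) a hairpin against luciferase. Both had 24 h of virus and 48 h of puromycin before RNA was extracted. The labels call the 2 arrays of a group biological duplicates, and name 1 line and 1 hairpin against BORIS, so effects of that hairpin on other genes cannot be told apart from those of reduced BORIS.

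In sympathetic neurons and chromaffin cells, tyrosine hydroxylase (TH) converts tyrosine to DOPA, the rate-limiting step, with a pterin cofactor whose synthesis starts with GTP cyclohydrolase (GCH1). DOPA decarboxylase (DDC) makes dopamine, vesicular transporters (SLC18A1 and SLC18A2) load it into granules, and dopamine beta-hydroxylase (DBH) turns it into noradrenaline inside them, using ascorbate that cytochrome b561 (CYB561) keeps reduced. The noradrenaline transporter (SLC6A2) takes released transmitter back up, and monoamine oxidase A (MAOA) degrades it in the cytoplasm. Neuroblastoma arises from this lineage, and tumours of this kind are known for releasing catecholamine metabolites.

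The 4 arrays were not on 1 common level. The median intensity of cellular probe sets was 80.8 and 84.5 with shBORIS and 64.4 and 60.4 with shLUC. That of the added ERCC control RNAs was dim and lay between 24.4 and 25.8 on all 4. Each difference was therefore given on 2 scales, as deposited and after centring, that is, with each array's median gene subtracted. All differences are shBORIS minus shLUC in log2(intensity + 16), and the median gene differed by 0.48 as deposited. The targeted gene, CTCFL, had intensities of 701 and 737 with shBORIS and of 3563 and 3376 with shLUC, a difference of -2.25 as deposited (SE 0.11) on its brightest probe set. Of its 7 probe sets, 5 were called lower as deposited, 1 higher, at 0.39 and with all 4 intensities between 37.7 and 55.6, and 1 neither. Each of the 7 sympathoadrenal and neuroblastoma markers analysed here passed the filter on low values, including HAND2 at 4940 and PHOX2A at 1265 with shLUC. After centring 6 of these 7 were called lower, MYCN by 0.33 and STMN2 by 0.43 among them (log2 -0.33 and -0.43), and CHGA higher, with a median of -0.31; as deposited 3 were called higher and 0 lower, with a median of 0.16. Of 6 Schwann cell and glial markers 1 passed the filter, and of 7 fibroblast, endothelial and immune markers 1 did. The glial marker was GFAP, with means of 78.9 with shBORIS and 59.3 with shLUC, the latter under the filter of 62.2. The summed intensity of the glial list was 203 to 222 with shBORIS and 196 to 219 with shLUC, although ERBB3 read 23.0 against 70.2 while SOX10 read 71.0 against 47.2. The summed intensity of the fibroblast, endothelial and immune list was 280.8 to 281 against 233 to 252, and PTPRC was dimmest, at 11.3 with shBORIS and 14.05 with shLUC. The part of these markers in the results was not tested.

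Among the 7 members that passed the filter on low values, DBH was the one that rose on both scales. As deposited, DBH and DDC were called higher and MAOA lower among these 7, with limma adjusted p under 0.05, when 77.2% of all genes tested were called higher and 4.64% lower. After centring, DBH rose and the other 6 (MAOA, SLC18A2, CYB561, GCH1, TH and DDC) fell, when 30.3% of all genes were called higher and 28.8% lower. The median of the 7 was 0.12 as deposited and -0.36 after centring, beside 0.48 and 0 over all genes tested. SLC18A2 passed the filter through its shLUC arrays, where it was higher. Most of these falls depended on the scale: with each array's ERCC median subtracted in its place, DBH and DDC were again called higher, at 0.83 and 0.23, and MAOA lower, at -0.26, while SLC18A2, CYB561, GCH1 and TH read -0.18, -0.05, 0.08 and 0.18, none called (limma adjusted p = 0.131, 0.639, 0.464 and 0.105). SLC18A1 and SLC6A2 were too dim for the filter, so their values, like those of each gene's further probe sets, come from a fit of all 49293 cellular probe sets. In that fit the median subtracted was that of all cellular probe sets, here called probe set centring. In such bulk samples, fewer cells of a type and less RNA per cell cannot be told apart. The plot of intensities by array shows the levels behind these calls.

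**Figure D1:**
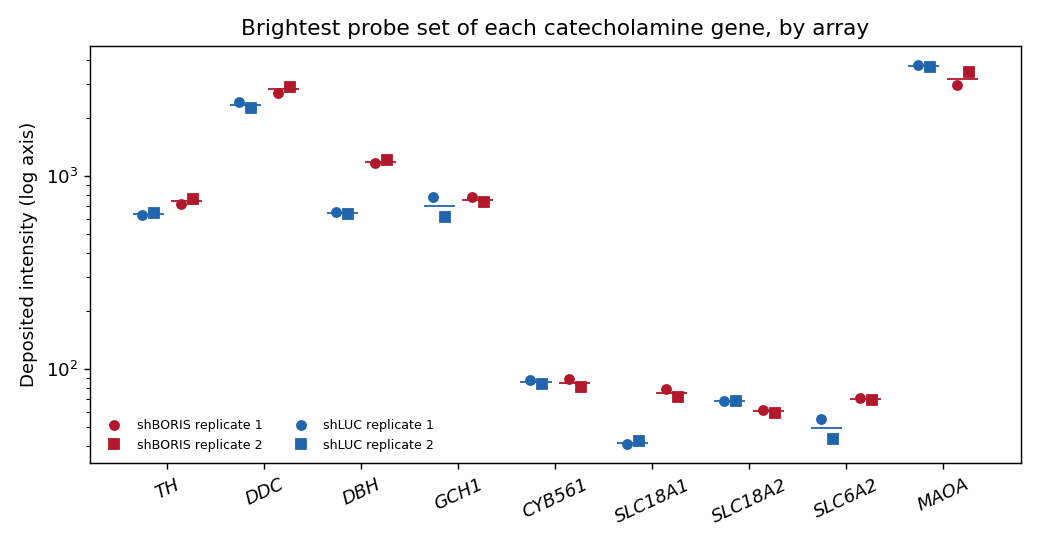
Deposited intensity (vertical log axis) of the brightest probe set of each of the 9 genes on each array; blue is shLUC, red is shBORIS, circles are replicate 1 and squares replicate 2, and short lines are means of 2 arrays. The DBH values with shBORIS, 1162 and 1211, lie clear of those with shLUC, 650.4 and 633.4, while the arrays of GCH1 and CYB561 overlap between groups.

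The synthesis enzymes did not all move together: TH, DDC and GCH1 differed by less than the median gene as deposited, and DBH by more. TH, the first enzyme of the pathway, had intensities of 717 and 763 with shBORIS and of 629 and 642 with shLUC. The groups did not overlap, but the difference of 0.21 as deposited missed the threshold (SE 0.11; limma adjusted p = 0.0712), and it turned to a fall of 0.26 after centring (log2 -0.26, SE 0.06; limma adjusted p = 0.00391). Both shBORIS arrays were thus brighter for TH, by less than for the median gene. Its other 2 probe sets read 0.16 and 0.10 as deposited, neither called. With probe set centring in its place, the 3 probe sets read -0.12, -0.18 and -0.23, of which the last 2 were called, and the brightest was not (limma adjusted p = 0.155).

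DDC, which also serves serotonin synthesis, had intensities of 2704 and 2906 with shBORIS and of 2408 and 2248 with shLUC. Again every shBORIS value exceeded both shLUC values. DDC rose by 0.27 as deposited (SE 0.10; limma adjusted p = 0.0108) and fell by 0.21 after centring (log2 -0.21, SE 0.05; limma adjusted p = 0.00276). The first call was lost without shBORIS replicate 2 (limma adjusted p = 0.0601) or shLUC replicate 2 (limma adjusted p = 0.164), and the second with probe set centring (difference -0.06; limma adjusted p = 0.35). The change within an array between TH and DDC was -0.05, and the groups overlapped; after quantile normalization it was -0.19 and they did not. A second DDC probe set, between 50.7 and 67.0 in intensity, was called higher as deposited by 0.25 (limma adjusted p = 0.0489), and the third, between 25.4 and 32.4, read -0.02.

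DBH, the enzyme that makes noradrenaline and the marker of noradrenergic cells, had the largest difference of the 7 members tested as deposited. After centring it was the member that rose, while MAOA, SLC18A2 and CYB561 differed by more, downward (log2 -0.70, -0.62 and -0.49). DBH had 1 probe set, with intensities of 1162 and 1211 with shBORIS and of 650.4 and 633.4 with shLUC, means of 1186.5 ± 35.1 (SD, n = 2) and 642 ± 12.0 (SD, n = 2). The arrays of the groups did not overlap and were far apart beside the spread of either. The difference was 0.87 as deposited, 1.83-fold (SE 0.11; limma adjusted p = 1.01e-13), and 0.39 after centring, 1.31-fold (SE 0.05; limma adjusted p = 1.52e-04). It kept this direction and stayed past the threshold without each array in turn, between 0.36 and 0.43 after centring. Its rise stood at the 87.4th percentile of the 10946 genes tested, while the other 6 members stood between the 4.73rd and the 26.8th. No second probe set was there to compare with it.

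The 250 bases before the RefSeq start of DBH are shown because DBH moved apart from the other members. They lie on the plus strand of GRCh38.p14 at chr9:133636113-133636362. Capitals mark, on either strand, TGACG (the core of the cAMP response element), CCAAT (the CCAAT box) and ATTA (a core that homeodomain factors such as PHOX2A can bind); 1 CCAAT overlaps an ATTA.
DBH: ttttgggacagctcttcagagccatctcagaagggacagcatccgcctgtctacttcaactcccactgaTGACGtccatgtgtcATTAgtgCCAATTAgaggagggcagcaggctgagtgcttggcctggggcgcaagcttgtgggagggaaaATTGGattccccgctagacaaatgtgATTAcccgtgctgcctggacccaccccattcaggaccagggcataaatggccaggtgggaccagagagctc
TGACG occurred once, 181 bases before the start, CCAAT at 2 places and ATTA at 3 places, between 71 and 166 bases before it. Of all 35116 RefSeq windows of this length, 21.2% held TGACG, 32% CCAAT and 47.4% ATTA, so none of these letters is rare there. Among the 5 members that had a window, TGACG was also in SLC18A2 and CCAAT also in DDC. ATTA was also in DDC, CYB561 and MAOA, so none of the marked letters was particular to DBH.

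GCH1, the entry point of pterin cofactor synthesis, had intensities of 773 and 729 with shBORIS and of 780.4 and 610.4 with shLUC. The shLUC arrays bracketed both shBORIS arrays. The difference was 0.12 as deposited (SE 0.11; limma adjusted p = 0.326), and it read -0.05 without shLUC replicate 2 and 0.29 without shLUC replicate 1 (limma adjusted p = 0.0514). After centring GCH1 fell by 0.36 (log2 -0.36, SE 0.08; limma adjusted p = 0.0044), or by 0.24 without shLUC replicate 1 and by 0.48 without shLUC replicate 2 (log2 -0.24 and -0.48, both called). Its second probe set, at 688 and 677 against 695 and 598, fell by 0.25 after probe set centring.

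CYB561, the granule membrane protein that regenerates ascorbate for DBH, did not follow DBH. Its brightest of 9 probe sets read 88.9 and 80.2 with shBORIS and 88.0 and 83.4 with shLUC, which overlap. The difference was -0.02 as deposited (SE 0.11; limma adjusted p = 0.889), and CYB561 fell by 0.49 after centring (log2 -0.49, SE 0.09; limma adjusted p = 0.00115). All 9 probe sets were dim, between 24.0 and 88.9. None was called as deposited, where they ran from -0.08 to 0.17, and 5 were called lower after probe set centring, where all 9 lay between -0.42 and -0.16.

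After probe set centring the vesicular transporters went in opposite directions, both at low intensity, with SLC18A2 at -0.47 and SLC18A1 at 0.34. SLC18A2 (VMAT2), the form of monoaminergic neurons, read 61.1 and 59.2 with shBORIS and 67.8 and 68.0 with shLUC, where the filter stood at 62.2. The difference was -0.14 as deposited (SE 0.12; limma adjusted p = 0.253), and SLC18A2 fell by 0.62 after centring (log2 -0.62, SE 0.09; limma adjusted p = 2.86e-04). Its other probe set, at 55.4 and 58.2 against 66.3 and 59.0, read -0.11 as deposited and fell by 0.44 after probe set centring. Both probe sets had every shBORIS value under both shLUC values, and 74.8% of all probe sets did not overlap, in either direction.

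SLC18A1 (VMAT1), the form of endocrine and chromaffin cells, had 1 probe set, at 78.9 and 71.7 with shBORIS and 40.8 and 42.1 with shLUC. It rose by 0.67 as deposited (SE 0.11; limma adjusted p = 1.5e-08) and by 0.34 after probe set centring (SE 0.10; limma adjusted p = 0.011). After quantile normalization of all cellular probe sets it read 0.41. The call after probe set centring was lost without shBORIS replicate 1 (difference 0.25; limma adjusted p = 0.0835) or shLUC replicate 1 (difference 0.28; limma adjusted p = 0.0702). SLC6A2, the noradrenaline transporter, read 70.9 and 69.3 against 55.0 and 43.4 on its brightest probe set. All 3 of its probe sets were called higher as deposited, by 0.41 to 0.51, when 51.8% of all probe sets were called higher, and none after probe set centring, where they read 0.07 to 0.18 and 24.9% were called higher. As deposited, the brightest missed the threshold without shLUC replicate 2 (difference 0.28; limma adjusted p = 0.0935).

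Array background moved as well, in its brighter probe sets. Of the 23 background control probe sets, which are designed to match no transcript, 4 had a mean between 30 and 90, and each of the 4 was brighter on both shBORIS arrays, by 0.16 to 0.30. Their shLUC means ran from 32.0 to 53.2, and those of SLC18A1 and of the brightest SLC6A2 probe set lay in that range. The brightest probe sets of SLC18A2 and CYB561, also under 90, read -0.14 and -0.02 as deposited. The 5 brighter background probe sets, with shLUC means of 80.5 to 1755, were also brighter on both shBORIS arrays, by 0.42 to 0.54, beside the 0.48 of the median gene. The other 14, with means under 30, differed by -0.02 to 0.13, with a median of 0.0047. The ERCC medians, 24.4 to 25.8, were also under 30. Whether the ERCC median follows shifts of brighter probe sets was not tested, which limits the scale with the ERCC median subtracted. The part of background in the values of the members was not tested.

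MAOA, the mitochondrial enzyme that oxidises noradrenaline and serotonin, was the member called lower as deposited. On its brightest probe set it read 2956 and 3435 with shBORIS and 3761 and 3667 with shLUC, means of 3195.5 ± 338 (SD, n = 2) and 3714 ± 66.0 (SD, n = 2). All 4 of its probe sets had both shBORIS arrays under both shLUC arrays, beside 74.8% of all probe sets without overlap in either direction. The differences of the 4 as deposited ran from -0.22 to -0.12. The brightest passed the threshold as deposited (log2 -0.22, SE 0.10; limma adjusted p = 0.028) and the other 3 did not; 3.22% of all probe sets were called lower. That call was lost without shBORIS replicate 1 (difference -0.11; limma adjusted p = 0.243), shLUC replicate 1 (difference -0.20; limma adjusted p = 0.187) or shLUC replicate 2 (difference -0.24; limma adjusted p = 0.126). After centring MAOA fell by 0.70, 1.62-fold (log2 -0.70, SE 0.05; limma adjusted p = 4.97e-06), and by 0.63 to 0.76 without each array in turn. After probe set centring all 4 probe sets fell, by 0.45 to 0.55, when 24.5% of all probe sets were called lower.

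**Figure D2:**
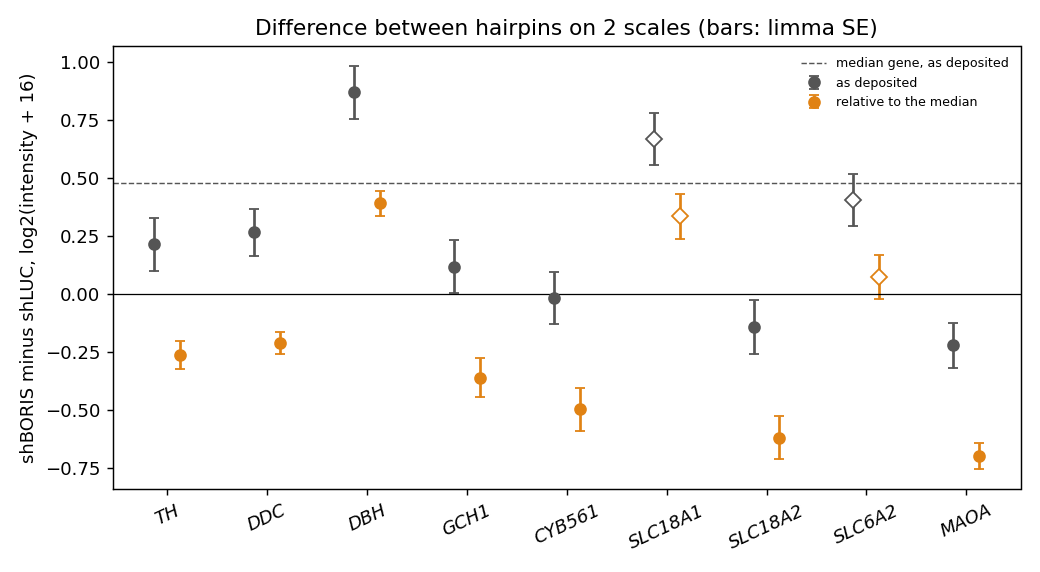
Difference between shBORIS and shLUC on the log2(intensity + 16) scale (vertical axis) for each gene, grey as deposited and orange relative to the median, with limma standard errors; filled circles are the 7 genes that passed the filter (median gene subtracted) and open diamonds the 2 that did not (median probe set subtracted). The dashed line is the median gene as deposited, 0.48, and DBH at 0.87 is the filled circle above it. The open diamonds come from the fit of all cellular probe sets, whose median difference as deposited was 0.26. SLC18A1 at 0.67 and SLC6A2 at 0.41 lie above that median.

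The 250 bases before the RefSeq starts of SLC18A2 and MAOA are shown because every probe set of these members was lower on both shBORIS arrays than on both shLUC arrays. Such absence of overlap was common, at 74.8% of all probe sets in either direction. Both windows lie on the plus strand of GRCh38.p14, SLC18A2 at chr10:117240864-117241113 and MAOA at chrX:43656049-43656298. Capitals mark, on either strand, GGGCGG (the GC box) and, in SLC18A2, also the full cAMP response element TGACGTCA and GGNGGCAG (the core of the CTCF motif).
SLC18A2: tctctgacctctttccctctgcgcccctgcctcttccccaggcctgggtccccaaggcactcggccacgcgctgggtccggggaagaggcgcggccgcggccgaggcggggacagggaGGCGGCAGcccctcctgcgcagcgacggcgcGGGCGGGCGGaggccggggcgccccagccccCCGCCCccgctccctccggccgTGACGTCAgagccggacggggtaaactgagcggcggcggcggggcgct
MAOA: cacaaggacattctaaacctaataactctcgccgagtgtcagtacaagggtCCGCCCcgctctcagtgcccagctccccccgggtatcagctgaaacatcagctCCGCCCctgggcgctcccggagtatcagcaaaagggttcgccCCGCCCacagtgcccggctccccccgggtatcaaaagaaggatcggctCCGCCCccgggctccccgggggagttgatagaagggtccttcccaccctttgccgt
GGGCGG occurred at 3 places before SLC18A2, where 2 of them overlap, and at 4 places before MAOA, and 42.6% of all windows held it. TGACGTCA lay 48 bases before the SLC18A2 start and occurred in 1.65% of all windows. The DBH window held no GGGCGG, and the MAOA window held 1 ATTA, left in lower case, 231 bases before the start. GGNGGCAG, the core of the CTCF motif, was searched because BORIS shares the DNA-binding zinc fingers of CTCF; it was in 13.4% of all windows and, among the 5 members that had a window, in those of SLC18A2 and DDC.

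Changes between members within an array are the same as deposited and after centring, since a constant per array cancels, but not after quantile normalization. For the 21 pairs of the 7 tested members, the log2 difference between the 2 genes was taken on each array, and it did not overlap between groups in 16 pairs. Singly, 90.4% of all genes tested did not overlap as deposited and 79.3% did not after centring. The matching share over pairs of all genes was not computed, and the 21 pairs reuse 7 genes. Absence of overlap in a pair, also in those with DBH, is therefore given as a description only. After quantile normalization 14 pairs did not overlap, and 3 pairs changed sign. TH minus DBH was -0.68 and -0.66 with shBORIS and -0.05 and 0.02 with shLUC, a change of -0.66. DBH against MAOA changed by 1.09, DBH against SLC18A2 by 1.01 and DBH against CYB561 by 0.89, each without overlap, as in all 6 pairs with DBH. After quantile normalization these changes were 0.89, 0.68 and 0.62, and DBH still gained on each of the other 6 without overlap. TH against MAOA changed by 0.43 and DDC against MAOA by 0.49, or by 0.25 and 0.44 after quantile normalization, also without overlap. These pairs were examined after the values of the single genes were known, and 2 arrays against 2 cannot give an exact two-sided permutation p under 0.333, so no p is given.

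**Figure D3:**
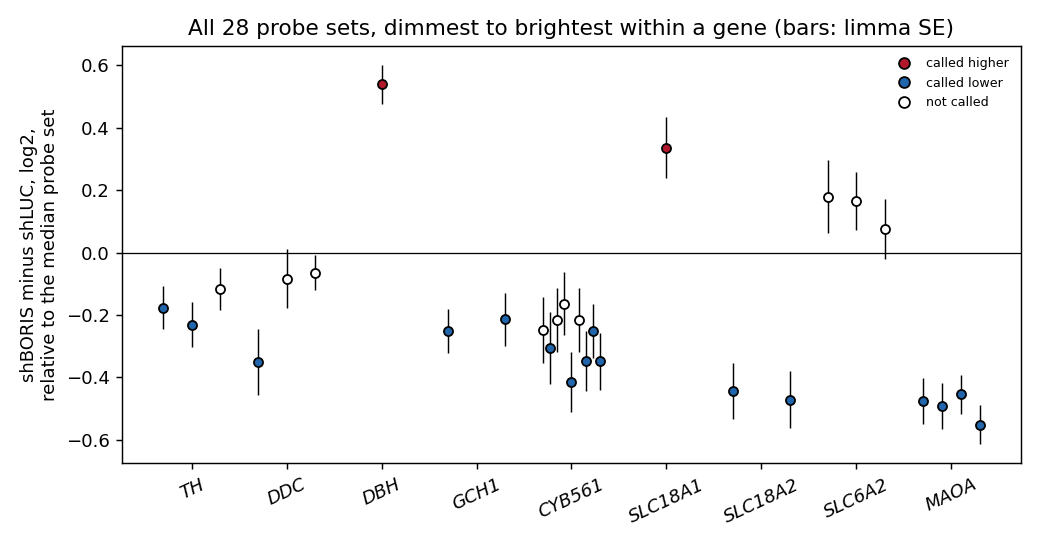
Difference between shBORIS and shLUC (vertical axis, log2(intensity + 16), each array's median over all cellular probe sets subtracted) for each of the 28 probe sets, from dimmest to brightest within a gene, with limma standard errors; red was called higher, blue lower and white neither. The DBH and SLC18A1 probe sets are red at 0.54 and 0.34, and all 4 of MAOA and both of SLC18A2 are blue.

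Counted over probe sets, 7 of the 28 were called higher and 1 lower as deposited, beside 51.8% and 3.22% of all probe sets. After probe set centring, 2 were called higher and 16 lower, beside 24.9% and 24.5%. Probe sets of 1 gene measure the same transcripts and are not independent. Of the 28, 18 had no overlap between groups as deposited, beside 74.8% of all.

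The other genes of tetrahydrobiopterin supply, the cofactor of TH, were mixed. Of 7, 5 were tested, of which 1 rose and 3 fell after centring, with a median of -0.18, while as deposited 3 were higher and 0 lower and the median was 0.30. SPR and PTS, the enzymes that finish the cofactor after GCH1, fell by 0.60 and 0.47 (log2 -0.60 and -0.47) and read -0.12 and 0.01 as deposited, not called. QDPR, which recycles the used cofactor, fell by 0.18 but was higher by 0.30 as deposited, and PCBD1, its partner in recycling, rose by 0.19 and by 0.66 as deposited. GCHFR, the feedback regulator of GCH1, read -0.12 after centring (limma adjusted p = 0.127) and was higher by 0.35 as deposited. The 3 enzymes that build the cofactor from GTP, GCH1, PTS and SPR, were thus all lower after centring and none was called as deposited.

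Among other enzymes of breakdown, 2 of 9 were tested and neither was called after centring. The aldehyde dehydrogenases ALDH2 and ALDH3A2, which clear the aldehydes that monoamine oxidases form, were higher as deposited by 0.39 and 0.60 and read -0.09 and 0.12 after centring. MAOB, the paralog of MAOA, was too dim to be tested, with means of 35.2 with shBORIS and 45.6 with shLUC. PNMT, which makes adrenaline, was also untested, at 66.8 and 49.7, as were the serotonin-forming hydroxylases TPH1 and TPH2, at 17.0 to 22.6.

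Of 8 other carriers, 4 were tested. SLC18B1, a vesicular polyamine transporter related to the vesicular amine transporters, fell by 0.81 after centring and by 0.33 as deposited (limma adjusted p = 4.22e-06 and 0.0048). SLC18A3, the vesicular acetylcholine transporter, rose by 0.23 and by 0.71 as deposited. SLC29A4, a low-affinity monoamine transporter, fell by 0.32 (log2 -0.32) and read 0.16 as deposited, not called. SLC6A3, the dopamine transporter, read -0.13 after centring (limma adjusted p = 0.223) and was higher by 0.35 as deposited. As with SLC18A1 and SLC18A2, vesicular carriers of 1 family thus differed in direction.

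Among 6 relatives of CYB561 and ascorbate carriers, 4 were tested, and all 4 were higher as deposited, with a median of 0.46, close to the 0.48 of all genes. After centring 1 rose and 0 fell. That was CYB561A3, a lysosomal relative of CYB561, which rose by 0.50 (SE 0.09; limma adjusted p = 6.96e-04), with means of 102 with shBORIS and 43.9 with shLUC, the latter inside the range of those 4 background probe sets, so that it passed the filter through the group where it was high. CYB561D1, CYB561D2 and the ascorbate transporter SLC23A2 read -0.0025, -0.09 and -0.03.

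Of 15 proteins that act on TH, 14 were tested, of which 3 rose and 5 fell after centring, with a median of 0.01, and 9 were higher and 0 lower as deposited. MAPKAPK2, a kinase that phosphorylates TH, fell by 0.52, and the kinases PRKACA and CAMK2D by 0.28 each (log2 -0.28 for both); as deposited these read -0.04, 0.20 and 0.20, none called. The 14-3-3 proteins, which bind phosphorylated TH, differed in direction. YWHAG and YWHAE fell by 0.34 and 0.28 and read 0.14 and 0.19 as deposited, not called, while YWHAQ rose by 0.28 and by 0.76 as deposited. The other 2 that rose, named after their values were seen, were the kinase CDK5 at 0.22 and DNAJC12, a co-chaperone of the aromatic amino acid hydroxylases, at 0.20.

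Among the proteins stored with catecholamines in granules, CHGA stood out. All 7 were tested, and 3 rose and 2 fell after centring, with a median of 0.07, while 5 were higher and 0 lower as deposited. CHGA, chromogranin A, had means of 6255 with shBORIS and 2133 with shLUC and rose by 1.07 (SE 0.05; limma adjusted p = 5.24e-07). SCG3, a granin that sorts cargo, and PAM, an ascorbate-using enzyme that amidates peptides, rose by 0.28 and 0.25. The neuropeptide precursors VGF and NPY fell by 0.37 and 0.33 (log2 -0.37 and -0.33) and read 0.10 and 0.15 as deposited, not called. CHGB and SCG2 read 0.07 and 0.03.

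Receptors for catecholamines were mostly dim, and 4 of 14 were tested. ADRA2A, an inhibitory receptor for noradrenaline that also acts on the releasing cell, rose by 0.72 after centring and by 1.20 as deposited (limma adjusted p = 4.03e-06 and 1.88e-24), with means of 818 with shBORIS and 346 with shLUC. ADRA2C, of the same subfamily, fell by 0.73 and by 0.25 as deposited (limma adjusted p = 1.68e-05 and 0.0261), with means of 254 and 305. DRD2, the inhibitory dopamine receptor, rose by 0.18 and by 0.66 as deposited. ADRA2B read -0.08 and was higher by 0.40 as deposited, with means of 84.8 with shBORIS and 60.3 with shLUC. The latter was under the filter, so ADRA2B passed it through the group where it was high. The subtypes of 1 receptor family therefore moved in opposite directions on both scales.

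Of 17 transcription factors known to act on TH or DBH promoters or in noradrenergic neurons, 13 were tested, of which 3 rose and 7 fell after centring, with a median of -0.15. As deposited 9 were higher and 1 lower. PHOX2A, which binds the DBH promoter, fell by 0.65 (log2 -0.65) with means of 1125 with shBORIS and 1265 with shLUC, and read -0.17 as deposited, not called, beside the rise of DBH. INSM1 and HAND2 fell by 0.51 and 0.31 (log2 -0.51 and -0.31) and read -0.03 and 0.16 as deposited, not called. EGR1 and FOS, which respond to stimulation, rose by 1.66 and 0.36, EGR1 from a shLUC mean of 40.9, under the filter, and JUN fell by 1.17 (log2 -1.17) and read -0.70 as deposited, called on both scales. The third that rose, named after its value was seen, was GATA2, at 0.25 and at 0.72 as deposited.

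**Figure D4:**
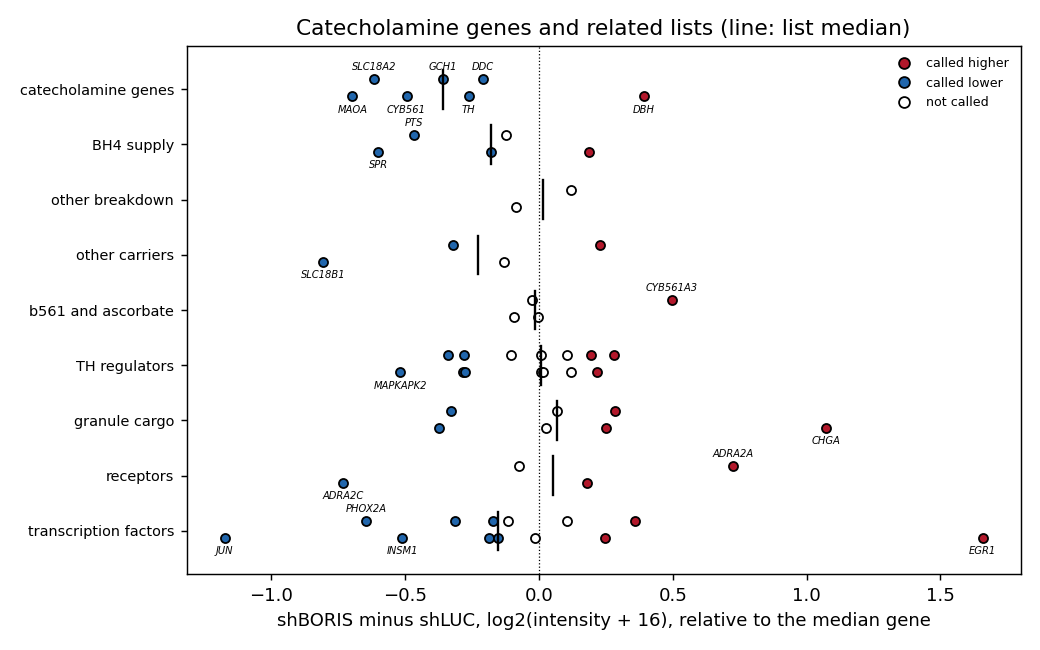
Difference between shBORIS and shLUC after centring (horizontal axis, log2(intensity + 16)) for each tested gene of the catecholamine set and of the related lists; red was called higher, blue lower and white neither, and the vertical line in each row is the list's median. In the top row DBH at 0.39 lies apart from the other 6 members, which run from -0.70 to -0.21.

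Markers of other transmitter types were few. Of 4 serotonergic markers only FEV passed the filter, and it rose by 0.79 after centring, with means of 540 with shBORIS and 214 with shLUC, while TPH1, TPH2 and SLC6A4 were untested and dim. The summed intensity of this list was 614 to 655 with shBORIS and 272 to 304 with shLUC. Of 3 cholinergic markers only SLC18A3 passed the filter, and the summed intensity was 246 to 257 against 163 to 183. Of 4 midbrain dopaminergic markers SLC6A3 and PITX3 passed it, and the sums were 289 to 300.4 against 225 to 249. The part of these genes in the results was not tested.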

How the data were processed

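Expression was measured on 4 Affymetrix PrimeView arrays, 2 per hairpin; per the labels' protocols, ERCC RNAs were added to total RNA and 100 ng was labelled with biotin. Each array has 1 deposited column of linear probe set intensity. Per the submitters' processing notes, the tools were MAS5, R 3.1.3 and affy, with no role stated. How the arrays were scaled and which genome build was used are not given in the sources used here. Tests left out the 202 control probe sets. Of 49293 cellular probe sets, 45278 had 1 symbol, 1333 several and 2682 none in the annotation table; symbols were updated through Entrez identifiers, found for 45208.

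For each gene the probe set with the highest mean was used, and a filter at the 40th percentile of that mean (an intensity of 62.2) kept 10946 genes. Log2(intensity + 16), which understates fold changes of dim genes, was fitted with limma 3.58.1 (R 4.3.3; hairpin as the only term, intensity trend, 2 residual degrees of freedom), with two-sided p-values adjusted by the Benjamini-Hochberg method over all genes and a threshold of 0.05. The fit was repeated with each array centred on its median over those genes (centring), and over all 49293 cellular probe sets with no filter, as deposited and centred on their median (probe set centring). As deposited the prior had infinite degrees of freedom, so standard errors come from the trend and very small p-values have little meaning. After centring, p-values rest on the spread between a gene's duplicates together with the trend. On both scales the small number of arrays limits precision. The model was tested on simulated data. Promoter windows are from RefSeq (GRCh38.p14); 5 of the 9 members had an entry and TH, GCH1, SLC18A1 and SLC6A2 did not.

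The members and lists were chosen with earlier results of these data known. All members are named; of each related list, up to 6 called genes with the largest relative difference, and all tested genes of lists with 5 or fewer. Alternatives changed the pseudocount (1 or 64), filter (none or the 60th percentile), probe set summary, array scaling, trend and replicate block, and left out each array.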

Additional observations from a re-analysis of the deposited data

How the results depend on the processing

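The rise of DBH and the centred fall of MAOA kept their direction and stayed past the threshold under every alternative. Those of SLC18A2, CYB561 and GCH1 did so under every alternative in which they were tested but the ERCC scaling, where GCH1 turned to 0.082; SLC18A2 and CYB561 were not tested with the 60th percentile filter. DBH read 0.27 after quantile normalization, 0.54 against the median of all cellular probe sets and 0.83 with the ERCC median subtracted, and MAOA read -0.63, -0.55 and -0.26. TH and DDC also turned on the ERCC scaling, to 0.18 and 0.23, where 2 members were called higher and 1 lower, and 8233 genes higher and 592 lower. Of the values as deposited, TH, DDC and GCH1 turned to -0.38, -0.19 and -0.47 after quantile normalization. Against the median of all cellular probe sets, TH, DDC and GCH1 turned to -0.12, -0.064 and -0.21. Quantile normalization called 1 member higher and 6 lower, and 3225 genes higher and 2839 lower; the median of all cellular probe sets called 1 and 4 members. The members called higher as deposited numbered 2, but 4 with no filter (SLC18A1 and SLC6A2 then entered), 1 with the mean of probe sets, 1 with the replicate block, and 1 to 2 without each array in turn. The member called lower as deposited, MAOA, was 0 with the mean of probe sets (adjusted p = 0.11, limma), 0 with the replicate block, and 0 to 1 without each array in turn. After centring, 1 member was called higher, or 2 with no filter, and 6 lower, or 4 with no filter, where TH and DDC were lost (limma adjusted p = 0.0545 and 0.0977), as they were against the median of all cellular probe sets (limma adjusted p = 0.149 and 0.333). Over all genes, 3315 were called higher after centring (2202 with the 60th percentile filter, 5012 against the median of all cellular probe sets) and 3153 lower (5053 with no filter, 1908 against the median of all cellular probe sets). As deposited 508 were called lower (273 with the 60th percentile filter). The filter changes which genes are tested; other causes were not tested. The duplicates share numbers 1 and 2 between groups; deviations of same-numbered arrays correlated at 0.0979 over genes, and no label says the numbers pair samples. The replicate block left 1 member higher and 0 lower as deposited (DDC and MAOA missed the threshold, limma adjusted p = 0.116 and 0.175), and 1 higher and 6 lower after centring.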
